A study of Homo sapiens with 15 samples.

Results

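The mitochondrial genome of A549 cells, a line of human lung epithelial cells derived from an adenocarcinoma, was examined for its RNA after exposure to high oxygen. Members were the genes whose RefSeq symbols belong to mitochondrial DNA, which are 37 in all, with 13 for messenger RNA, 2 for ribosomal RNA and 22 for transfer RNA. The count tables hold 43388 genes, and 24 of the 37 mitochondrial genes have a row there, namely both rRNA genes and all 22 tRNA genes. The 13 mRNA genes (ND1, ND2, ND3, ND4, ND4L, ND5, ND6, COX1, COX2, COX3, ATP6, ATP8 and CYTB) have no row under these symbols and were not analysed here.

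Hyperoxia means that the cells were kept in 95% O2 for 72 hours, and normoxia that they were kept in 21% O2. Before this, they received 1e-05 mM all-trans retinoic acid (ATRA), a metabolite of vitamin A, or its ethanol vehicle for 24 hours. There were 3 hyperoxia and 3 normoxia libraries with ATRA, 2 and 2 with vehicle, and 2 and 2 whose labels name neither, called no addition below. The genotype of the line was labelled as wild type throughout, and 1 further library, whose title and treatment label do not match, was assigned to no group.

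Human mitochondrial DNA is a small circle that is transcribed from both strands into long RNAs. The tRNAs lie between the other genes like punctuation, and their excision by the nuclear encoded RNase P and ELAC2 releases the rRNAs and mRNAs. RNR1 and RNR2 encode the 12S and 16S rRNAs of the mitochondrial ribosome, the tRNAs deliver amino acids to it, and that ribosome makes subunits of the respiratory chain, which consumes most of the oxygen a cell takes up. On hg38, whose mitochondrial chromosome has 16569 bases, 14 of the tRNA genes and both rRNA genes are on the plus strand and 8 tRNA genes (TRNQ, TRNA, TRNN, TRNC, TRNY, TRNS1, TRNE and TRNP) are on the minus strand. The tRNA genes are between 59 and 75 bases long and have no introns.

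The sequences of 8 tRNA genes on which the results turn are given 5′ to 3′ as the tRNA is read, from the hg38 genome, with the anticodon in capitals. TRNF (tRNA for phenylalanine, chrM:577-647, plus strand) lies directly before RNR1, and TRNV (valine, chrM:1602-1670, plus) lies between RNR1 and RNR2. TRNG (glycine, chrM:9991-10058, plus) lies between COX3 and ND3, TRNT (threonine, chrM:15888-15953, plus) follows CYTB, and TRNE (glutamate, chrM:14674-14742, minus) lies between ND6 and CYTB. These 5 had lower counts in hyperoxia.
TRNF: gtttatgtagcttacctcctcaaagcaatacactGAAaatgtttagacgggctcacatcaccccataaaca
TRNV: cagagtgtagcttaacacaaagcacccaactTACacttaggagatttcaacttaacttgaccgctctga
TRNG: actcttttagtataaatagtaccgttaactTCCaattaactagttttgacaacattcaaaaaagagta
TRNT: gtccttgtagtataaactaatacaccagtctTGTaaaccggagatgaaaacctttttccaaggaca
TRNE: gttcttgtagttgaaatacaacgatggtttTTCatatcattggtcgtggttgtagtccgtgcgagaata
The other 3 had higher counts in hyperoxia in at least 1 comparison. TRNQ (glutamine, chrM:4329-4400, minus) overlaps the end of TRNI on the opposite strand, and TRNC (cysteine, chrM:5761-5826, minus) and TRNY (tyrosine, chrM:5826-5891, minus) share a base at their junction.
TRNQ: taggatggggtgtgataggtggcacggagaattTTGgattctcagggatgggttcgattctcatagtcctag
TRNC: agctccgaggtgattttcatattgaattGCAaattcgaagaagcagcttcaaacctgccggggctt
TRNY: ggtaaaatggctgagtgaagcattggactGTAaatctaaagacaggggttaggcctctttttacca

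The 14 assigned libraries held between 2642377 and 5605072 counts on genes, so that 3 counts, the smallest level that can be shown, corresponded to between 0.535 and 1.14 CPM (counts per 1e+06 counts on genes), a limit that reflects the error of counting alone. Between 48.6% and 55.3% of the read entries fell outside any gene row, 50.2% to 53.1% in hyperoxia and 48.6% to 55.3% in normoxia. Hyperoxia replicate 1 without addition stood apart from the other libraries. It had a count for only 12657 genes at 4910396 counts on genes, against 16465 to 20108 genes in the other assigned libraries. It also had 0 counts for TRNT and 14 for TRNM. The comparison without addition is given with and without it below. The labels do not say that replicates came from separate cultures, so p-values measure only the spread between these libraries. The keratins KRT8 and KRT18 marked the cells as epithelial in every library, although EPCAM had at most 24 counts. The summed level of 5 epithelial markers was 1665 to 4159 CPM in hyperoxia and 5562 to 9287 CPM in normoxia. That of 3 immune markers was 59.7 to 105 CPM in hyperoxia and 18.0 to 33.2 CPM in normoxia, nearly all of it CD68, with PTPRC at 1 count or less and CD3E at 0. The part of these differences in the results below was not tested.

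The 2 rRNA genes made up a large share of all counts, and their share overlapped between the oxygen exposures. In hyperoxia, RNR1 and RNR2 together took between 7.16% and 13.7% of the counts on genes (median 10.8%, n = 7 libraries), and in normoxia between 8.93% and 14.04% (median 12.6%, n = 7). Because these are shares of the sequenced RNA, less mitochondrial RNA per cell cannot be told apart from fewer cells rich in it. The 12S gene RNR1 (chrM:648-1601) had normalized counts of 27684 and 19176 CPM in hyperoxia with vehicle and of 27653 and 25446 CPM in normoxia with vehicle. With ATRA, RNR1 was at 29858, 33110 and 25314 CPM in hyperoxia and at 39114, 33927 and 41891 CPM in normoxia, where all 3 normoxia libraries lay above all 3 hyperoxia libraries.

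RNR1 fell in hyperoxia with ATRA, with a log2 fold change of -0.38 (standard error 0.12, edgeR adjusted p = 0.0306). This call was lost in DESeq2 (adjusted p = 0.0931), in an edgeR fit of all 14 libraries (adjusted p = 0.278) and without any 1 of ATRA hyperoxia replicates 1 and 3 and ATRA normoxia replicates 1 and 3, with log2 fold changes between -0.39 and -0.29. RNR1 was at -0.18 with vehicle (standard error 0.15, edgeR adjusted p = 0.487), and at -0.23 without addition (standard error 0.25, edgeR adjusted p = 0.565), where leaving out hyperoxia replicate 1 turned it to 0.20 (edgeR adjusted p = 0.587). The 16S gene RNR2 (chrM:1671-3229) passed the test in none of the 3 comparisons, at 0.06 (approximate 95% interval -0.22 to 0.35) with vehicle, -0.19 (-0.43 to 0.04) with ATRA and -0.20 (-0.72 to 0.33) without addition, which became 0.22 without hyperoxia replicate 1. There were 2.66 to 2.96 counts of RNR2 for each count of RNR1 in hyperoxia, within the wider range of 2.07 to 3.16 in normoxia.

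**Figure D1:**
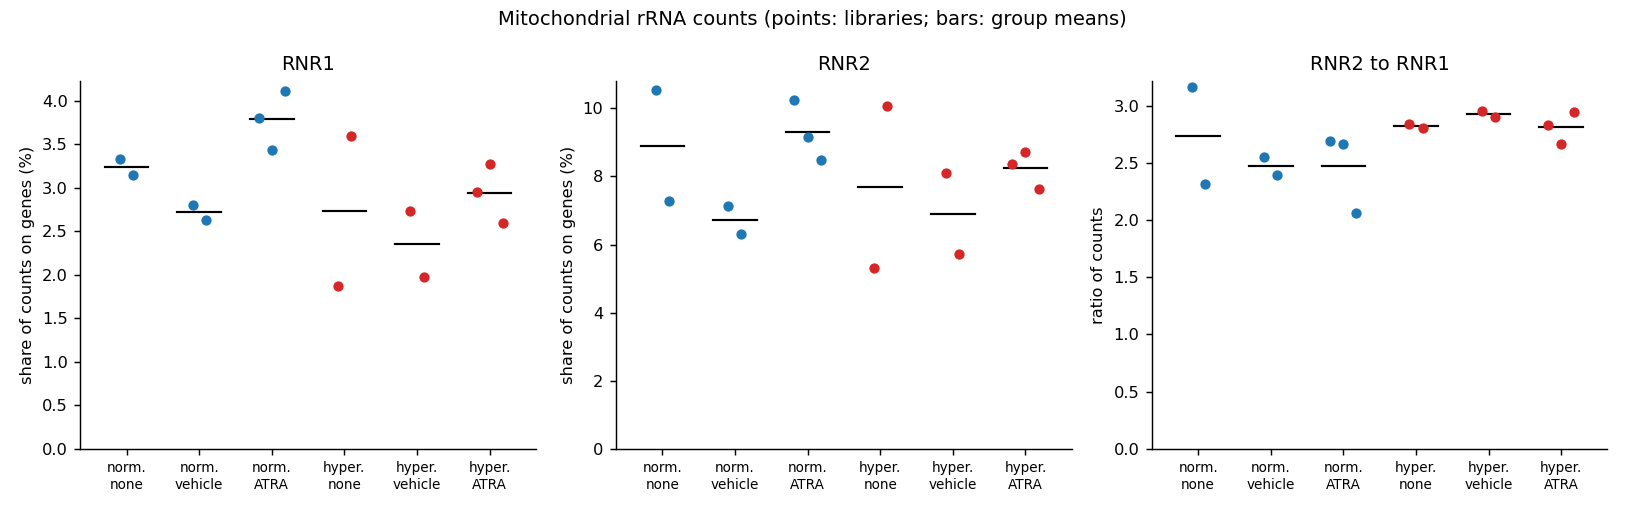
Share of the counts on genes (percent) taken by RNR1 and by RNR2, and the ratio of RNR2 to RNR1 counts, in each of the 14 assigned libraries by oxygen exposure and treatment. Points are libraries and bars are group means. The shares overlap between hyperoxia (red) and normoxia (blue), and the ratio spans 2.66 to 2.96 in hyperoxia and 2.07 to 3.16 in normoxia.

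The 22 tRNA genes together took far fewer counts, between 0.178% and 0.255% of the counts on genes in hyperoxia (n = 7) and between 0.225% and 0.345% in normoxia (n = 7). Per length, over the 14 libraries, the median level was 53398 CPM per kilobase for RNR2 and 32145 for RNR1. Among the tRNAs it ranged from 6931 CPM per kilobase for TRNL1, the leucine tRNA directly after RNR2, to 274 for TRNA, the alanine tRNA. TRNY, TRNP (proline) and TRNC, all on the minus strand, followed TRNL1 with 4908, 4683 and 3286 CPM per kilobase. The ranges over libraries of neighbours in this order overlapped, except those of RNR1 and TRNL1. All 24 genes passed the filter on low counts in both fits.

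Lower tRNA counts in hyperoxia were the most frequent difference, and a few tRNAs, nearly all of them encoded on the minus strand, were higher. With vehicle, 10 of the 24 genes passed the test, 6 lower and 4 higher, against 17.5% of all 14957 genes tested (8.81% lower and 8.68% higher). With ATRA, 14 passed, 12 lower and 2 higher, against 22.7% of all genes (11.3% lower and 11.4% higher). Without addition, 10 passed, all of them lower, against 15.2% of 15339 genes (7.58% lower and 7.57% higher). The median log2 fold change of the 22 tRNA genes by strand is given further on, beside medians over all genes of 0.01 with vehicle, 0.01 with ATRA and -0.10 without addition.

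Of the 24 genes, 6 fell in each of the 3 comparisons, namely TRNF, TRNV, TRNG, TRNS1, TRNE and TRNT, against 4.47% of the 14957 genes tested in all 3. In all, 12 fell in at least 1 (15.3% of all genes), 5 rose in at least 1 (15.8%) and 7 passed in none (69%). No gene passed in opposite directions. The split with vehicle depended on the scaling, with 6 lower and 2 higher under RLE size factors, since TRNY and TRNP then missed the threshold. With vehicle, leaving out any 1 of the 4 vehicle libraries left 3 to 5 genes called, and a fit of all 14 libraries in 6 groups left 3, all lower. With ATRA, 9 genes were called without ATRA normoxia replicate 1 (2 higher and 7 lower) and 9 in the fit of 14 libraries. Without addition, 7 genes (TRNF, TRNG, TRNT, TRNE, TRNS1, TRNS2 and TRNL2) were called without hyperoxia replicate 1, 19 without hyperoxia replicate 2, and 2 without normoxia replicate 1, all of them lower. The shares of all genes called in these alternative fits are not given here. A shift in the mitochondrial genes therefore cannot be told apart from a shift in the test over all genes.

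**Figure D2:**
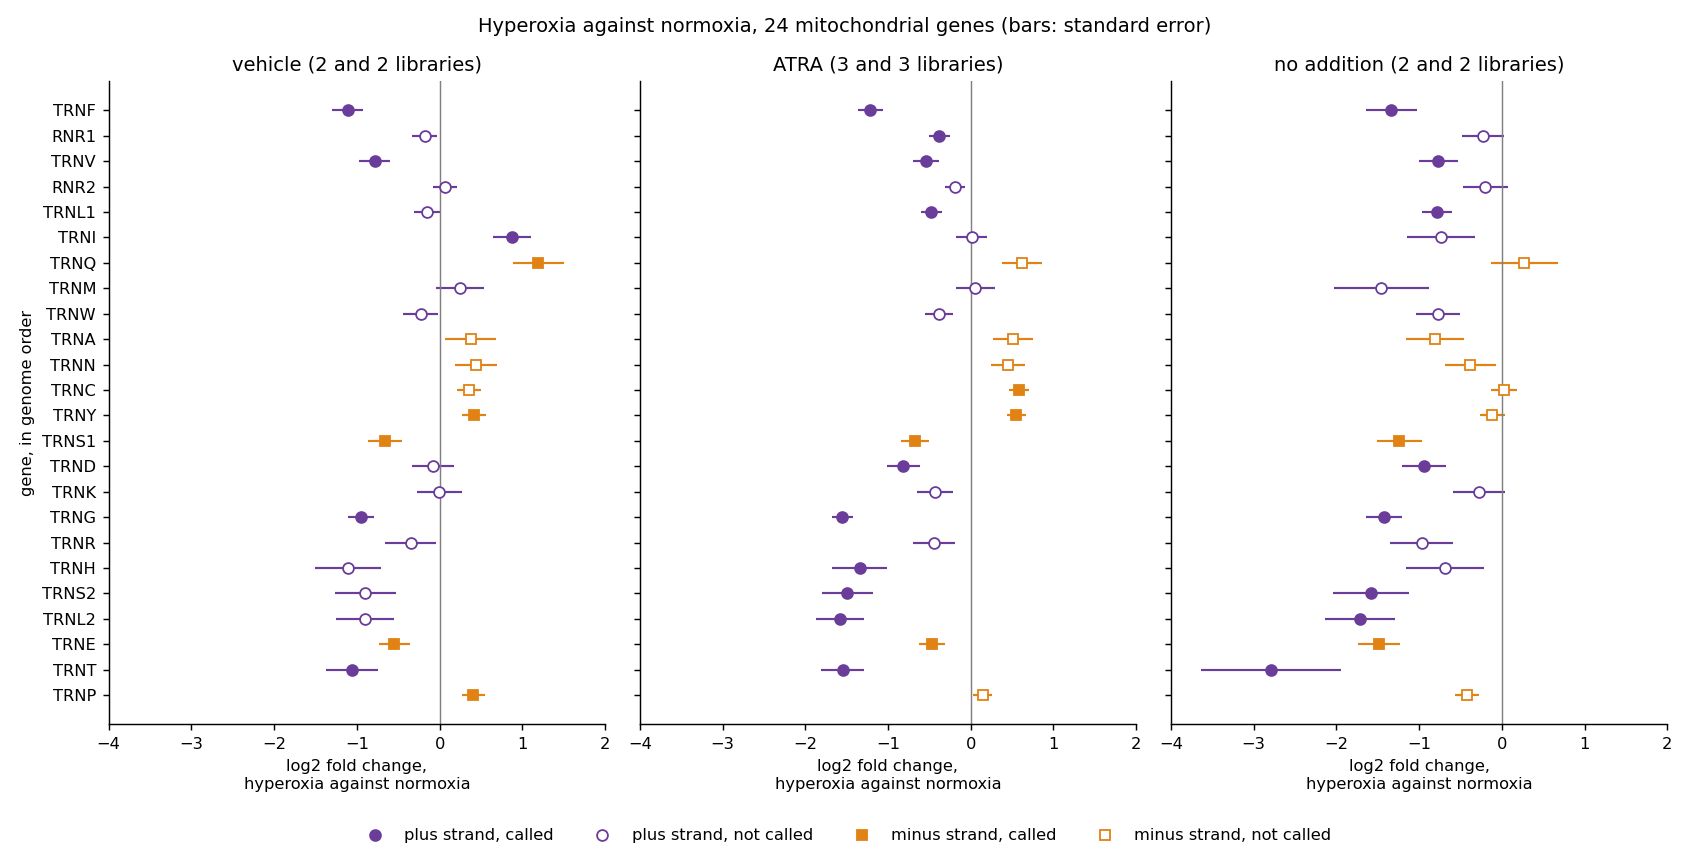
Log2 fold change of hyperoxia against normoxia (horizontal axis) for the 24 mitochondrial genes in genome order (vertical axis), with vehicle, with ATRA and without addition. Bars are standard errors, filled symbols passed the test at an adjusted p under 0.05, circles are plus-strand genes and squares minus-strand genes. TRNF, TRNV, TRNG, TRNS1, TRNE and TRNT are filled and left of 0 in all 3 panels.

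TRNF showed one of the clearest differences, with every hyperoxia library below every normoxia library. Its normalized counts were 76.3 and 63.0 CPM in hyperoxia and 152 and 148 CPM in normoxia with vehicle. With ATRA they were 74.8, 86.9 and 81.2 CPM in hyperoxia and 172, 242 and 148 CPM in normoxia. Without addition, TRNF had 44.1 and 101 CPM in hyperoxia and 218 and 142 CPM in normoxia. The log2 fold change of TRNF was -1.11 with vehicle (standard error 0.19, edgeR adjusted p = 0.00024), -1.21 with ATRA (0.16, edgeR adjusted p = 6.92e-06) and -1.34 without addition (0.31, edgeR adjusted p = 0.00829). The calls with vehicle and with ATRA held in every alternative, and that without addition was lost without normoxia replicate 1 (log2 fold change -1.03, edgeR adjusted p = 0.108). The log2 fold change without addition was -0.84 without hyperoxia replicate 1, at 44.1 CPM (edgeR adjusted p = 0.0383), and -2.08 without hyperoxia replicate 2, at 101 CPM (edgeR adjusted p = 2.55e-06).

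TRNG, which reads the glycine codons, also had all 7 hyperoxia libraries below all 7 normoxia libraries. It had 76.3 and 78.4 CPM in hyperoxia and 137 and 162 CPM in normoxia with vehicle. With ATRA it had 70.5, 68.9 and 61.9 CPM against 201, 169 and 219 CPM, so the 6 libraries fell into separate ranges. Without addition it had 109 and 58.6 CPM in hyperoxia and 226 and 226 CPM in normoxia. TRNG was at a log2 fold change of -0.95 with vehicle (standard error 0.16, edgeR adjusted p = 0.000181) and -1.55 (0.13, edgeR adjusted p = 2.37e-08) with ATRA, the smallest adjusted p of the 24 genes in each comparison. It was -1.42 (0.22, edgeR adjusted p = 0.000387) without addition, and -1.95 (edgeR adjusted p = 9.99e-07) there without hyperoxia replicate 1.

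TRNT, the threonine tRNA, had few counts in every library. With vehicle, its counts of 43 and 85 under hyperoxia and of 64 and 184 under normoxia corresponded to 11.4 and 15.01 CPM against 22.2 and 32.6 CPM. With ATRA its levels were 11.2, 20.3 and 14.2 CPM in hyperoxia and 45.1, 51.2 and 34.4 CPM in normoxia. Without addition it had 0 counts, which allows up to 0.611 CPM, and 13.7 CPM in hyperoxia, against 53.6 and 33.3 CPM in normoxia. The groups did not overlap in any of the 3 comparisons. Its log2 fold change was -1.06 (standard error 0.32, edgeR adjusted p = 0.0234) with vehicle, -1.55 (0.26, edgeR adjusted p = 0.000163) with ATRA and -2.79 (0.84, edgeR adjusted p = 0.0355) without addition. Without the library at 0 counts, the last value was -1.68 (edgeR adjusted p = 0.0107). The call with vehicle was lost in the fit of 14 libraries (adjusted p = 0.527) and without hyperoxia replicate 1 or 2 or normoxia replicate 2 (up to 0.295), and the call with ATRA was lost in the fit of 14 libraries (adjusted p = 0.139). The call without addition was lost in DESeq2 and when most single libraries were left out, with adjusted p values up to 0.195.

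TRNV, which lies between the 2 rRNA genes, fell less. With vehicle it was at 78.5 and 63.4 CPM in hyperoxia and 124 and 120 CPM in normoxia, and with ATRA at 91.9, 75.0 and 73.9 CPM against 141, 118 and 93.9 CPM. Without addition it was at 72.7 and 95.8 CPM against 176 and 110 CPM. Groups did not overlap within a treatment, but the hyperoxia and normoxia ranges over all treatments overlapped. The log2 fold changes were -0.79 (standard error 0.19, edgeR adjusted p = 0.00476) with vehicle, -0.54 (0.15, edgeR adjusted p = 0.0129) with ATRA and -0.77 (0.24, edgeR adjusted p = 0.0376) without addition. The call was lost with vehicle without hyperoxia replicate 2 (edgeR adjusted p = 0.0942), with ATRA without hyperoxia replicate 3 or normoxia replicate 1 (up to 0.106) and in the fit of 14 libraries (0.0806), and without addition in 5 fits that left out 1 library (up to 0.397), among them that without hyperoxia replicate 1 (log2 fold change -0.59).

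TRNE and TRNS1 (serine, anticodon TGA) were the 2 minus-strand tRNAs that fell. TRNE had 83.8 and 106 CPM in hyperoxia and 132 and 145 CPM in normoxia with vehicle, 118, 111 and 107 CPM against 199, 121 and 144 CPM with ATRA, and 59.7 and 88.0 CPM against 250 and 158 CPM without addition. Every hyperoxia library of TRNE lay below every normoxia library, by a narrow margin between 118 and 121 CPM. Its log2 fold changes were -0.55 (standard error 0.19, edgeR adjusted p = 0.0491), -0.47 (0.15, edgeR adjusted p = 0.0313) and -1.48 (0.25, edgeR adjusted p = 0.000936). The call with vehicle was lost in 6 of the 10 fits that left out 1 library (adjusted p up to 0.355) and the call with ATRA in 3 of them (up to 0.279). TRNS1 ranged from 26.2 to 52.3 CPM in hyperoxia (median 47.5, n = 7) and from 57.7 to 99.3 CPM in normoxia (median 70.8, n = 7). Its log2 fold changes were -0.66 (edgeR adjusted p = 0.0282), -0.68 (edgeR adjusted p = 0.00505) and -1.24 (edgeR adjusted p = 0.00608). The call of TRNS1 with vehicle was lost without hyperoxia replicate 1 or normoxia replicate 2 and in the fit of 14 libraries (adjusted p = 0.158), that with ATRA was lost in the fit of 14 libraries (adjusted p = 0.0532), and that without addition was lost without normoxia replicate 1. Without hyperoxia replicate 1, the values without addition were -1.22 for TRNE (edgeR adjusted p = 0.00383) and -0.86 for TRNS1 (edgeR adjusted p = 0.0415). The calls of TRNE with vehicle and with ATRA were also lost in the fit of 14 libraries (adjusted p = 0.222 and 0.158).

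**Figure D3:**
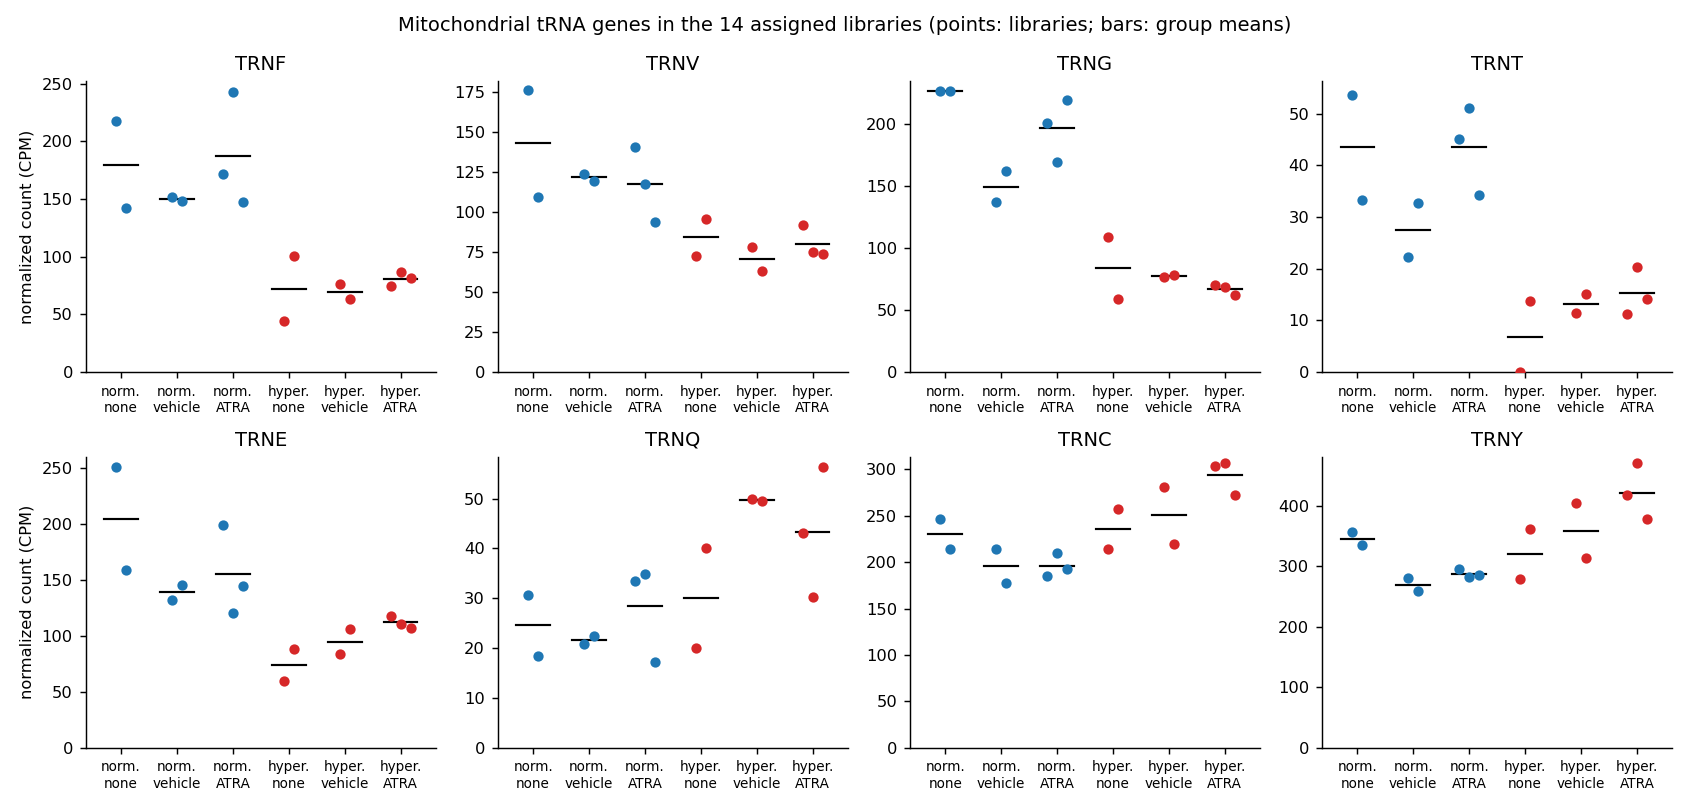
Normalized counts (CPM, axes starting at 0) of 8 mitochondrial tRNA genes in each of the 14 assigned libraries. Points are libraries, bars are group means, blue is normoxia and red is hyperoxia. In TRNF, TRNG, TRNT and TRNE all 7 red points lie below all 7 blue points, while the red and blue points of TRNV, TRNQ, TRNC and TRNY overlap over all treatments.

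A run of 3 adjoining tRNAs after ND4, namely TRNH (histidine), TRNS2 (serine, anticodon GCT) and TRNL2 (leucine, anticodon TAG), was low in hyperoxia. TRNL2 had 25.8, 9.18 and 38.0 CPM in hyperoxia and 75.9, 93.0 and 57.8 CPM in normoxia with ATRA, and its log2 fold change was -1.58 (standard error 0.29, edgeR adjusted p = 0.000369). TRNS2 had 23.8, 6.50 and 23.4 CPM against 51.9, 65.9 and 39.8 CPM with ATRA, with a log2 fold change of -1.49 (0.30, edgeR adjusted p = 0.00107). Hyperoxia replicate 2 with ATRA was the lowest of the 7 hyperoxia libraries for all 3 genes, with 14 to 24 counts each. Without it, the calls of all 3 with ATRA held. TRNH had a log2 fold change of -1.34 (0.33, edgeR adjusted p = 0.00511) with ATRA.

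With vehicle the same 3 tRNAs had log2 fold changes of -1.11 (TRNH, edgeR adjusted p = 0.0624), -0.90 (TRNS2, edgeR adjusted p = 0.105) and -0.90 (TRNL2, edgeR adjusted p = 0.0841), which did not pass. Without addition, TRNL2 fell with a log2 fold change of -1.72 (edgeR adjusted p = 0.0127) and TRNS2 with -1.58 (edgeR adjusted p = 0.03), and both calls were lost without normoxia replicate 1, that of TRNS2 also without normoxia replicate 2. Without hyperoxia replicate 1 they were at -2.25 and -2.27 (edgeR adjusted p = 0.00171 and 0.00282). TRNH was at -0.68 without addition (edgeR adjusted p = 0.349, and -1.22 without hyperoxia replicate 1), with 28.0 and 14.98 CPM in hyperoxia and 40.4 and 29.3 CPM in normoxia.

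TRNL1, the leucine tRNA with the most counts, and TRND, the aspartate tRNA before COX2, fell with ATRA and without addition. TRNL1 had 523, 504 and 481 CPM in hyperoxia and 813, 563 and 725 CPM in normoxia with ATRA, a log2 fold change of -0.48 (standard error 0.13, edgeR adjusted p = 0.00836), and -0.79 (edgeR adjusted p = 0.00784) without addition. TRND had 64.4, 36.4 and 50.3 CPM against 113, 87.7 and 69.0 CPM with ATRA, a log2 fold change of -0.81 (0.20, edgeR adjusted p = 0.00488), and -0.94 (edgeR adjusted p = 0.026) without addition. With vehicle they were at -0.15 (approximate 95% interval -0.46 to 0.15) and -0.08 (-0.57 to 0.41) and did not pass. Both calls with ATRA were lost without ATRA normoxia replicate 1 (edgeR adjusted p = 0.0637 and 0.0536), and both calls without addition were lost without replicate 1 of either oxygen exposure (up to 0.170), with values of -0.60 for TRNL1 and -0.84 for TRND without hyperoxia replicate 1.

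Higher counts in hyperoxia were found in at least 1 comparison for 5 tRNAs. Of these, TRNQ, TRNC, TRNY and TRNP are on the minus strand and TRNI (isoleucine) is on the plus strand opposite TRNQ. TRNQ had 49.8 and 49.4 CPM in hyperoxia and 20.8 and 22.3 CPM in normoxia with vehicle, for which the log2 fold change was 1.19 (0.30, edgeR adjusted p = 0.00817). With ATRA it had 43.1, 30.2 and 56.4 CPM against 33.4, 35.0 and 17.2 CPM, which overlapped (log2 fold change 0.62, edgeR adjusted p = 0.0772). TRNI had 75.6 and 81.6 CPM against 43.5 and 42.2 CPM with vehicle (log2 fold change 0.88, edgeR adjusted p = 0.00999), but 78.1, 48.2 and 70.4 CPM against 77.2, 72.1 and 48.1 CPM with ATRA (log2 fold change 0.01, edgeR adjusted p = 0.977). Both calls were lost without normoxia vehicle replicate 1 or 2 or hyperoxia vehicle replicate 2, and that of TRNQ also without hyperoxia replicate 1, with adjusted p values up to 0.0987. Both were lost in the fit of 14 libraries (adjusted p = 0.238 for TRNI and 0.0811 for TRNQ), and TRNI was at 0.04 (edgeR adjusted p = 0.923) in the fit with treatment as a covariate described further on. Without addition, TRNI had 18.8 and 69.4 CPM in hyperoxia and 82.1 and 61.4 CPM in normoxia (log2 fold change -0.74, edgeR adjusted p = 0.243). TRNQ had a log2 fold change of 0.27 there (edgeR adjusted p = 0.682). Mean normoxia levels without addition, with ATRA and with vehicle were 71.8, 65.8 and 42.8 CPM for TRNI. Those of TRNQ were 24.5, 28.5 and 21.6 CPM. Because TRNI and TRNQ overlap and the strand setting of the counting is not given in the sources used here, reads at their junction cannot be assigned with certainty.

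TRNC and TRNY rose with ATRA in every alternative. TRNY had 417, 471 and 378 CPM in hyperoxia and 295, 282 and 286 CPM in normoxia, a log2 fold change of 0.55 (standard error 0.12, edgeR adjusted p = 0.00149). TRNC had 303, 307 and 272 CPM against 185, 210 and 193 CPM, a log2 fold change of 0.59 (0.12, edgeR adjusted p = 0.00112). With vehicle, TRNY at 0.41 (edgeR adjusted p = 0.048) and TRNP at 0.40 (edgeR adjusted p = 0.0492) passed narrowly and TRNC at 0.36 (edgeR adjusted p = 0.106) did not. The calls of TRNY and TRNP were lost under other size factors and without any of several single libraries, with adjusted p values up to 0.650 and 0.468. Without addition no mitochondrial gene rose, with none higher also at an unadjusted p under 0.05 in either edgeR or DESeq2, and TRNC, TRNY and TRNP had log2 fold changes of 0.03, -0.11 and -0.42 (0.15, 0.06 and -0.29 without hyperoxia replicate 1).

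The remaining 7 genes, RNR2 and the tRNAs TRNM (methionine), TRNW (tryptophan), TRNA, TRNN (asparagine), TRNK (lysine) and TRNR (arginine), passed in no oxygen comparison. TRNM, which also starts every mitochondrial protein, had log2 fold changes of 0.25, 0.06 and -1.46 with vehicle, with ATRA and without addition, the last with 2.80 CPM in the hyperoxia replicate 1 that stood apart and at -0.59 (edgeR adjusted p = 0.372) without that library. TRNW was negative in all 3 comparisons, at -0.23, -0.39 and -0.77 (edgeR adjusted p = 0.531, 0.114 and 0.0599). TRNA and TRNN were positive with vehicle and ATRA, between 0.38 and 0.52, and negative without addition, at -0.81 and -0.38 (-0.50 and 0.01 without hyperoxia replicate 1). TRNR was at -0.35, -0.44 and -0.97, and TRNK was at -0.01, -0.43 and -0.27.

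Seen over all 14 libraries, 7 tRNA genes (TRNF, TRNS1, TRNG, TRNS2, TRNL2, TRNE and TRNT) had every hyperoxia library below every normoxia library, against 7.31% of all genes in that direction. No mitochondrial gene had every hyperoxia library above, against 6.34% of all genes. In a fit of all 14 libraries with treatment as a covariate, chosen after seeing the data, 13 of the 24 genes fell and 3 rose (TRNQ, TRNC and TRNY), against 14.8% and 15.4% of all genes. In this fit TRNW at -0.45 (edgeR adjusted p = 0.0215) and TRNR at -0.57 (edgeR adjusted p = 0.0364) fell too, while RNR1 at -0.28 (edgeR adjusted p = 0.117) and TRNP at 0.06 (edgeR adjusted p = 0.743) did not pass. TRNG had the smallest adjusted p there, with a log2 fold change of -1.34 (standard error 0.13, edgeR adjusted p = 2.86e-07).

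By strand, the 14 plus-strand tRNA genes had a median log2 fold change of -0.57 with vehicle, -0.68 with ATRA and -0.96 without addition, and the 8 minus-strand genes had medians of 0.39, 0.48 and -0.40. Without hyperoxia replicate 1, the medians without addition were -0.80 and -0.14. Plus-strand tRNAs took between 0.0900% and 0.115% of the counts on genes in hyperoxia and between 0.127% and 0.210% in normoxia, without overlap. Minus-strand tRNAs took between 0.0883% and 0.140% in hyperoxia and between 0.0943% and 0.135% in normoxia, ranges that overlapped. The ratio of minus-strand to plus-strand tRNA counts, which depends neither on depth nor on the scaling of the libraries, lay between 0.981 and 1.43 in hyperoxia (median 1.15, n = 7) and between 0.602 and 0.780 in normoxia (median 0.655, n = 7). It was 0.981 and 1.03 in hyperoxia without addition, 1.19 and 0.991 with vehicle and 1.22, 1.43 and 1.15 with ATRA, and all 7 exceeded the normoxia libraries. Strand here is that of the gene. The strand setting of the counting is not given in the sources used here, so a row may include RNA of the opposite strand. The sums rest largely on a few genes with many counts. In ATRA hyperoxia replicate 1, TRNL1 held 2899 of the 6421 plus-strand counts. There, TRNY, TRNP and TRNC held 2315, 2260 and 1683 of the 7856 minus-strand counts. With vehicle, 7381 of all 14957 genes tested were negative, beside 7316 of 14957 with ATRA and 8366 of 15339 without addition. The shares of all genes negative or positive in all 3 comparisons are not given here. Of the 14 plus-strand tRNAs, 12 were negative in all 3 comparisons and none was positive in all 3. Of the 8 minus-strand tRNAs, 2 were negative (TRNS1 and TRNE) and 2 were positive (TRNQ and TRNC) in all 3, to which leaving out hyperoxia replicate 1 without addition added TRNN and TRNY.

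**Figure D4:**
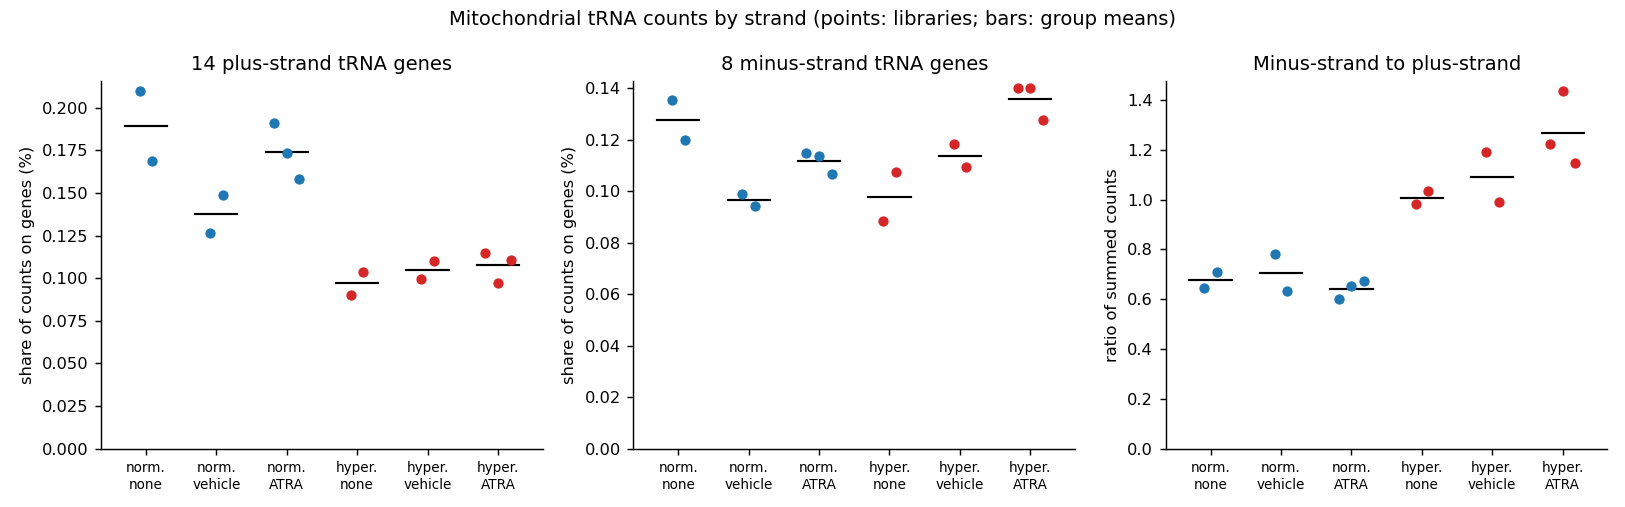
Share of the counts on genes (percent) taken by the 14 plus-strand and the 8 minus-strand tRNA genes, and the ratio of minus-strand to plus-strand tRNA counts, in each of the 14 assigned libraries. Points are libraries, bars are group means, blue is normoxia and red is hyperoxia. The ratio is 0.981 to 1.43 in hyperoxia and 0.602 to 0.780 in normoxia.

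The tRNA counts can include reads from neighbouring genes, since 14 of the 22 tRNA genes adjoin at least 1 mRNA gene that has no row and the overlap setting of the counting is not given in the sources used here. Of these 14, 4 fell and 2 rose with vehicle, 8 fell and 1 rose with ATRA, and 7 fell without addition. Of the other 8 tRNA genes, whose neighbours all have rows, 2 fell and 2 rose with vehicle, 3 fell and 1 rose with ATRA, and 3 fell without addition. Of all genes, 8.81% fell and 8.68% rose with vehicle, 11.3% and 11.4% with ATRA, and 7.58% and 7.57% without addition. These sets also differ by strand. The minus-strand genes are TRNY, TRNS1 and TRNE among the 14 and TRNQ, TRNA, TRNN, TRNC and TRNP among the 8. The median log2 fold change was -0.29 for the 14 and 0.37 for the 8 with vehicle, -0.47 and 0.30 with ATRA, and -0.96 and -0.59 without addition. The part of neighbouring reads or of strand in this was not tested. TRNF and TRNV, which adjoin only rRNA genes or no gene, had lower log2 fold changes than RNR1 and RNR2 in each of the 3 oxygen comparisons. Whether the counts came from mature tRNAs or from unprocessed transcripts was not tested.

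In normoxia, 2 mitochondrial genes were higher with ATRA than with vehicle, and both also had higher means without addition than with vehicle. None passed the test of ATRA against vehicle in hyperoxia. In normoxia, 2 of the 24 genes rose and none fell against vehicle, against 1.25% of all genes (0.816% higher and 0.435% lower). At an unadjusted p under 0.05, 10 were higher and none lower in edgeR, and 9 and none in DESeq2. Shares of all genes at an unadjusted p are not given here for any comparison. The log2 fold change was positive for 23 of the 24 (7494 of all 14957 genes), with a median of 0.44 beside 0.0008 over all genes. TRNP had 330, 354 and 315 CPM with ATRA and 240 and 201 CPM with vehicle, and its log2 fold change was 0.60 (standard error 0.13, edgeR adjusted p = 0.0168). TRND had 113, 87.7 and 69.0 CPM with ATRA and 42.1 and 51.8 CPM with vehicle, and its log2 fold change was 0.93 (0.23, edgeR adjusted p = 0.0466). Both genes did not overlap between the groups, yet both calls were lost in the fit of 14 libraries and without any of ATRA replicate 1 or vehicle replicates 1 and 2 in normoxia, with adjusted p values up to 0.659 for TRND and 0.445 for TRNP. The call of TRND was lost in 7 of the 10 fits that left out 1 library. RNR1 and RNR2 had log2 fold changes of 0.53 (edgeR adjusted p = 0.0762) and 0.52 (edgeR adjusted p = 0.0647) and did not pass. Mean normoxia levels without addition, with ATRA and with vehicle were 90.0, 89.9 and 46.9 CPM for TRND. Those of TRNP were 354, 333 and 221 CPM. In the same order, RNR1 had 32944, 38311 and 26549 CPM and RNR2 had 90817, 94214 and 65750 CPM. Vehicle thus had the lowest mean for each of these genes. Normoxia with vehicle was not tested against normoxia without addition.

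In hyperoxia, none of the 24 genes passed the test for ATRA against vehicle, beside 2.21% of all genes (1.52% higher and 0.695% lower). The log2 fold change was positive for 19 of the 24 (7533 of all 14957 genes), with a median of 0.20 beside 0.004 over all genes. The smallest edgeR adjusted p was 0.21, for TRNP, whose log2 fold change was 0.34. At an unadjusted p under 0.05, 4 genes were higher and none lower in edgeR, and 3 were higher in DESeq2, which called none after adjustment. The oxygen effect with ATRA differed from that with vehicle for none of the 24 genes by an interaction term, against 0.14% of all genes (0.1% higher and 0.0401% lower). At an unadjusted p under 0.05, 3 genes had a lower oxygen effect with ATRA both in edgeR and in DESeq2, which called none. The interaction was -0.60 for TRNG (approximate 95% interval -1.002 to -0.20), -0.87 for TRNI (-1.45 to -0.29) and -0.74 for TRND (-1.36 to -0.11). These intervals exclude 0 but are not adjusted for the number of genes tested. The interaction was negative for 18 of the 24 genes (7404 of all 14957 genes), with a median of -0.22 beside 0.005 over all genes. With 2 to 3 libraries per group, sizeable differences between the treatments remain possible. An added test of the oxygen effect without addition against that with vehicle called none of the 24 genes in edgeR (against 0.00652% of all genes), with 8 lower at an unadjusted p under 0.05, and DESeq2 was not run for it.

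Nuclear genes transcribe and process mitochondrial RNA. Among 27 such genes, 2 fell with vehicle (8.81% of all genes fell and 8.68% rose), 2 fell and 1 rose with ATRA (11.3% and 11.4% of all genes), and 3 fell and 1 rose without addition (7.58% and 7.57%), with median log2 fold changes of -0.06, -0.05 and -0.28. POLRMT, the mitochondrial RNA polymerase, was at 59.4 ± 4.98 CPM (SD, n = 2) in normoxia with vehicle and at 30.2 ± 7.04 CPM (n = 2) in hyperoxia, and its log2 fold change was -0.96 (0.25, edgeR adjusted p = 0.0106). It was at -0.50 (edgeR adjusted p = 0.0997) with ATRA and -1.63 (edgeR adjusted p = 0.00315) without addition. TFAM, which packages mitochondrial DNA and activates its promoters, passed in none, at 0.38, -0.19 and -0.43 (edgeR adjusted p = 0.343, 0.539 and 0.296). SLIRP, a partner of LRPPRC in stabilising mitochondrial mRNAs, fell in all 3, at -1.01, -0.66 and -2.28 (edgeR adjusted p = 0.00807, 0.0311 and 0.000532). The other genes that passed, named after their values were seen, were TBRG4 (higher with ATRA at 0.63 and without addition at 1.14), FASTKD3 (lower with ATRA at -1.35) and GRSF1 (lower without addition at -0.74).

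Among 13 genes for replication of mitochondrial DNA and its nucleotide supply, 2 rose and 2 fell with vehicle and with ATRA, and 1 rose and 1 fell without addition, beside the same shares of all genes. RRM2B, a subunit of the ribonucleotide reductase that serves non-dividing cells and a p53 target, rose from 45.01 ± 2.21 CPM (SD, n = 2) in normoxia to 107 ± 11.3 CPM (n = 2) in hyperoxia with vehicle, with log2 fold changes of 1.24, 1.02 and 1.24 in the 3 comparisons (edgeR adjusted p = 0.000153, 0.00013 and 0.00138). TOP1MT, the mitochondrial topoisomerase, fell in all 3 (-0.93, -0.85 and -1.33). LIG3, a DNA ligase, fell with vehicle and with ATRA (-1.14 in both), and MPV17, an inner membrane protein, rose in those (0.65 and 0.75). Among 7 nuclear regulators of mitochondrial genes, none passed with vehicle in edgeR, and ESRRA, named after its values were seen, rose with ATRA (0.63) and without addition (1.31). PPARGC1A was near the floor, at a mean of 1.33 CPM in hyperoxia and 3.44 CPM in normoxia with vehicle, and did not pass.

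Most products of the nuclear genes of the respiratory chain assemble with mitochondrially encoded subunits. More of these genes fell than rose, but not in complexes II and III, nor in complex IV without addition. Of 76, 11 fell and 1 rose with vehicle, 11 fell and 5 rose with ATRA, and 8 fell and 2 rose without addition, with medians of -0.16, -0.03 and -0.22. Of all genes, 8.81%, 11.3% and 7.58% fell and 8.68%, 11.4% and 7.57% rose. With ATRA and without addition, the share that fell was not far above that of all genes. The medians were positive in all 3 comparisons for complex II (0.12, 0.29 and 0.30) and complex III (0.26, 0.21 and 0.09). With ATRA, SDHA (0.41) rose in complex II. In complex III, UQCR11 (0.73) and CYC1 (0.50) rose and UQCRB (-0.47) fell. These 4 genes were named after their values were seen. In complex I, NDUFB9 fell with vehicle (-0.94) and with ATRA (-0.83) but was at -0.03 without addition, NDUFB10 fell with vehicle (-0.66) and with ATRA (-0.54), and NDUFB4 fell in all 3 (-0.71, -0.52 and -1.11). In complex IV, COX4I1 fell in all 3 (-0.77, -0.47 and -1.11), and in complex V, which makes ATP, ATP5F1A (-0.67, -0.39 and -0.73) and ATP5MC1 (-0.75, -0.72 and -0.70) did so. Genes of complexes I and IV that rose were likewise named after their values were seen. They were NDUFA10 with vehicle (0.48), NDUFA13 (0.71) and NDUFB5 (0.76) with ATRA, and NDUFB5 (1.07) and COX6A1 (0.79) without addition. No mitochondrial mRNA could be set beside these nuclear genes, for want of rows.

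Nuclear copies of mitochondrial sequence, which can take up mitochondrial reads, had few counts. Of 11 rows for humanin-like copies of RNR2, MTRNR2L2 (mean 45.4 counts) and MTRNR2L8 (mean 31.7 counts) averaged at least 10 counts, against at least 203102 counts of RNR2 in each library. Neither passed in any comparison, with log2 fold changes between -0.50 and 0.37 across the oxygen comparisons.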

How the data were processed

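Total RNA of A549 cells was extracted with RNA-Bee and made into stranded libraries with the NEXTFLEX Rapid Directional kit. Per the labels and the study's methods, the authors trimmed reads and removed short ones with Trimmomatic 0.38. They used HISAT2 for alignment (genome build hg38) and HTSeq for counting, and they deposited 1 table of raw read counts per library. The effect of removing short reads on the counts of the short tRNA genes was not tested. The annotation release, and how strand and overlapping genes were handled, are not given in the sources used here.

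The 37 symbols of mitochondrial genes were looked up in the tables, and 24 have a row. Entries that name no gene (48.6% to 55.3% of entries without a feature) were left out of library sizes. Counts were filtered with filterByExpr (minimum count 10, minimum total 15), scaled by TMM and tested with edgeR 4.0.16 (R 4.3.3), with quasi-likelihood tests and Benjamini-Hochberg adjustment over all genes tested and a threshold of 0.05. One fit held the 10 libraries with vehicle or ATRA in 4 groups (14957 genes), and another held the 14 assigned libraries in 6 groups (15339 genes) for the comparison without addition. Normalized counts are TMM-scaled CPM. Standard errors are the absolute log2 fold change over the square root of F, and approximate 95% intervals are 1.96 standard errors to each side. Shares and ratios use plain counts. Replicates of a group differed beyond sampling noise, with a chi-square per degree of freedom of 3.98 to 31.5 over 10 pairs. In counts simulated for the vehicle comparison, with 200 of 14957 genes changed, 43% of 2-fold and 70% of 4-fold changes were recovered, and 9.6% of the calls were of unchanged genes.

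Alternatives were DESeq2 1.42.0, RLE size factors, scaling without the members, no filter, other sets of libraries, a block and leaving out each library. Named nuclear genes were POLRMT, TFAM, PPARGC1A and up to 3 genes per role, those with the smallest p among genes that passed in both the vehicle and the ATRA comparison; others are said to be chosen after their values were seen. Members and lists were chosen with earlier results of these data known. tRNA sequences and positions come from the hg38 genome.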

Additional observations from a re-analysis of the deposited data

Results flagged for a closer look

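The library that was assigned to no group, whose title names hyperoxia and whose treatment label names adipogenic differentiation, had 54.4 CPM of TRNQ (240 counts, scaled by the library total). This exceeded each of the 7 normoxia libraries, at 16.9 to 35.4 CPM, and lay within the 20.4 to 57.9 CPM of the 7 hyperoxia libraries. Of 15339 genes, 27.7% exceeded each normoxia library in this way. It is a single library, and no test was made.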

How the results depend on the processing

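All 36 called pairs of gene and comparison kept their direction in the alternatives run, and 9 stayed called in each of them (TRNC, TRNF, TRNG, TRNH, TRNL2, TRNS2 and TRNY with ATRA, TRNF and TRNG with vehicle). Of 108 uncalled pairs, 15 were called and 10 changed sign under an alternative that left out no library. A fit of all 14 libraries in 6 groups called 3 genes instead of 10 with vehicle, 9 instead of 14 with ATRA, and 0 instead of 2 for ATRA against vehicle in normoxia, where dropping the filter called 4. The added fit with treatment as a covariate, chosen after seeing the data as was the test of oxygen by addition, called 16. Without addition, a fit of only the 4 libraries compared called 0 instead of 10. Leaving out 1 library gave 3 to 11 calls with vehicle, 9 to 14 with ATRA, 2 to 19 without addition, and 0 to 3 for ATRA against vehicle in normoxia. The log2 ratio of summed rRNA counts then ranged from -0.30 to 0.20 with vehicle and from -0.76 to 0.17 without addition, and that of summed tRNA counts from -0.15 to -0.044 with vehicle. As a share of all read entries, the latter was -0.0060 with vehicle, against -0.10, and -0.14 with ATRA, against -0.23. The cause of these shifts was not tested. Where a group was left with 1 library, that library was assumed to vary like the others. The labels carry no replicate numbers that would pair samples. A replicate block of library sets, read from the library numbers instead, gave 10, 14, 10 and 2 calls, and the call of TRNT without addition was lost (edgeR adjusted p = 0.0528), as was that of TRND for ATRA in normoxia (edgeR adjusted p = 0.0811). Sums over mRNA genes gave no value, as these genes have no row. With 2 to 3 libraries per group and few counts for several tRNAs, small differences were not detectable. Apart from the covariate fit, the shares of all genes called under these alternatives are not given here.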

Other observations

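In the same unassigned library, 12 of the 24 mitochondrial genes lay below every normoxia library, against 20.9% of 15339 genes, and 23 lay within the range of the hyperoxia libraries, against 87.2%. TRNG had 63.4 CPM and TRNF had 59.1 CPM, against at least 138 and 142 CPM in normoxia. TRNV had 62.1 CPM, just under the lowest hyperoxia library at 65.1 CPM. The ratio of minus-strand to plus-strand tRNA counts was 1.07, and there were 3.04 counts of RNR2 for each count of RNR1.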
